A study of Bos taurus with 10 samples.

Results

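MicroRNAs are short RNAs cut from hairpin precursors. An Argonaute protein holds the mature strand, and its seed near the 5′ end pairs with target messenger RNAs. Each hairpin can give a mature RNA from its 5p or its 3p arm, and many hairpins lie inside the introns of protein-coding host genes. Numbers are handed out in order of registration, so miRNAs with high numbers were largely annotated from deep sequencing and many have no known target in cattle. Mature sperm carry small RNAs left from spermatogenesis or taken up in the epididymis, and cattle sperm have been searched for miRNAs that go with fertility.

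The miRNAs described here are those whose number after the miR prefix is at least 3000 and below 11000, with any letter or arm suffix, such as miR-3600, miR-4523, miR-6119 and miR-10183. The rule for these members uses the name alone, although the number range was proposed with results of these data known, and they account for 102 of the 978 miRNA rows, from 93 hairpins. Of the 102 rows, 23 were named 5p, 16 were named 3p and 63 carried no arm. The same 102 rows were listed for both comparisons of the study. Mature sequences were not used here, so members are described by name, level and genomic setting.

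Small RNA was sequenced from bull (Bos taurus) sperm in 10 samples, labelled by the fertility of the bull (BFI) and of the bull's daughters (DFI). High bull fertility (3 samples) was set against low bull fertility (3 samples), and high associated daughter fertility (3 samples) against low (3 samples). One sample with high bull and high daughter fertility and one with high bull and low daughter fertility served in both comparisons, so the comparisons are not independent. No sample received extra treatment, and breed, age, number of bulls and sperm purification are not in the labels. Nothing in the labels says that samples of a group came from separate bulls, so every p-value measures the spread between these samples, which may be technical.

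The authors' deposited tables give, for each miRNA and comparison, the mean of normalized read counts over the 6 libraries, a log2 fold change and its standard error (SE), a Wald p-value and a p adjusted over all miRNAs. A value for each sample was not at hand, so how far the values of the samples in one group overlap those in the other cannot be seen, and the total count of each library is not known. Fold changes are given here as high over low fertility. The direction was inferred from miRNAs read in 1 library, as set out with the processing, and for daughter fertility it also leans on library depth. The group levels quoted below are implied by the authors' mean and fold change, and they carry no error of their own beyond the SE of the fold change.

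The sperm label was checked against 5 sperm miRNAs, all of which were listed above 0. The most abundant of them was miR-34c, a germ cell miRNA, with a mean of 1914 normalized counts in the authors' deposited bull fertility table and 2442 in the daughter fertility one. High before low, the implied levels of the 5 summed to 2309 and 4452 for bull fertility and to 5774 and 2963 for daughter fertility. All markers of leukocytes, epithelium and red cells were also above 0. In the same order, 6 leukocyte miRNA rows summed to 419 and 469 and to 503 and 631, and 6 epithelial miRNAs to 329 and 384 and to 479 and 344. The 3 red cell miRNAs summed to 272 and 258 and to 317 and 301. No marker passed the adjusted threshold, and the part of these cells in the members' values was not tested. In bulk libraries, fewer cells of a type and less RNA per cell cannot be told apart.

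The members were of moderate abundance. Their median mean was 54.8 normalized counts for bull fertility against 46.0 over all 978 miRNAs, and 70.7 against 57.8 for daughter fertility. Together they made up 8.43% of the summed means for bull fertility and 9.15% for daughter fertility. A mean of at least 10 was reached by 93 members for bull and 95 for daughter fertility, and a mean of at least 100 by 25 and 36. At the low end, miR-10174-5p had means of 0.489 and 0.990, and miR-3613a and miR-3601 stayed below 5 in both of the authors' deposited tables.

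The member with the highest mean for bull fertility was miR-3154, which lies within the span of DNM1, the gene of the membrane-scission GTPase dynamin 1. Its mean was 913 normalized counts, rank 17 of 978, in the authors' deposited bull fertility table, and 843, rank 29, in the daughter fertility one. Next for bull fertility came miR-6527, within ADNP, a gene for a chromatin-associated homeobox protein, with means of 792 and 531 in the authors' deposited tables. Then followed miR-8550 (329 normalized counts for bull fertility), miR-10167-3p (313), miR-6526 (282), miR-10170-5p (253) and miR-6516 (245), by the same authors' deposited table. For daughter fertility the authors' deposited table put miR-3600 first at 1623, followed by miR-3154 and then by miR-6526 at 567.

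**Figure D1:**
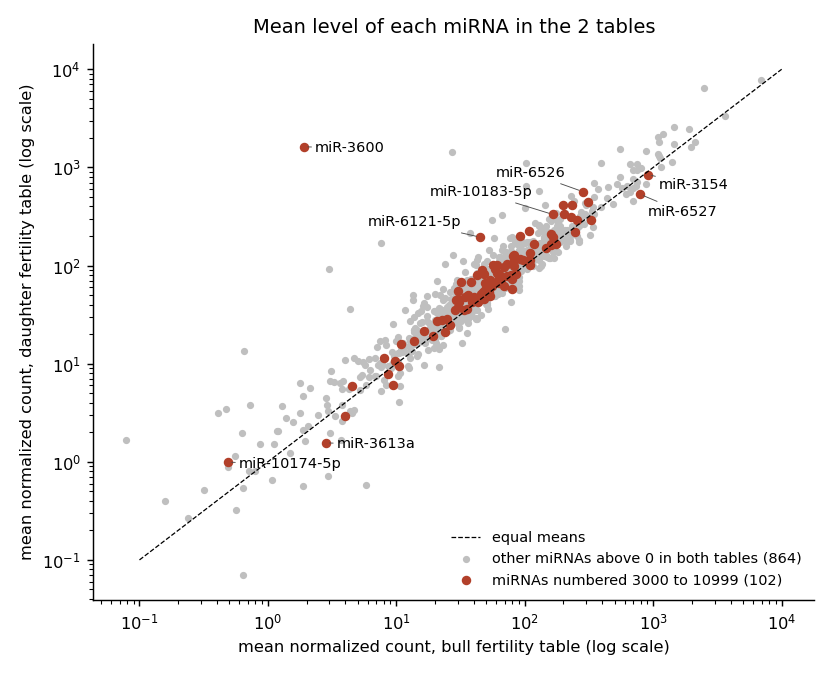
Mean normalized count of each miRNA over the 6 libraries of the bull fertility comparison (x axis, log scale) and over those of the daughter fertility comparison (y axis, log scale), with the 102 members coloured and 864 other miRNAs above 0 in both in grey; the dashed line marks equal means. Most members lie near the diagonal, and miR-3600 stands apart at 1.92 against 1623.

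The ratio of the daughter fertility mean to the bull fertility mean had a median of 1.19 over the members and 1.20 over all miRNAs. It was over 2 for 9 members and under 1 for 21. Because 2 libraries are in both comparisons, reads beyond what the bull fertility mean allows must lie in the 4 libraries used for daughter fertility alone. By that reckoning at least about 73.9% of the miR-6121-5p signal and 48.1% of that of miR-10165-5p lay in those 4. For the other members with a ratio over 2, leaving aside miR-3600, the bound was 46.8% for miR-6534, 45.8% for miR-7865, 44.5% for miR-7863, 43.8% for miR-10174-5p, 43.6% for miR-10183-5p and 43.5% for miR-6526. Of these bounds only that of miR-6121-5p is above 4 in 6, the share under an even spread over the libraries. The others are lower bounds below that share, so they cannot show whether the signal was concentrated in those 4. That of miR-10174-5p rests on means of 0.489 and 0.990. The bound takes the scale of 1 shared library, 1.137, for both shared libraries.

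The member with the largest contrast was miR-3600, whose hairpin overlaps that of miR-22 in the RefSeq annotation and lies within the span of TLCD2. Its mean was 1.92 normalized counts (rank 935) in the authors' deposited bull fertility table and 1623 (rank 11) in the daughter fertility one. Over the 6 daughter fertility libraries the signal summed to 9736, of which the 2 shared libraries can hold at most 13.1. The rest lay in the 4 libraries labelled by daughter fertility alone. The implied level of miR-3600 was 2.36 normalized counts with high and 3243 with low daughter fertility. By these levels nearly all of the signal lay in the 2 of those libraries labelled low. How it was spread over these 2 is not known, so the implied low level may not describe both.

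The authors' deposited table gives miR-3600 a log2 fold change of -10.42 (SE 3.70) for daughter fertility, with low fertility higher, and lists no p for it. The authors' deposited bull fertility table gives it 0.06 (SE 1.77). Of miR-22, from the overlapping hairpin, only the 5p arm was listed. For miR-22-5p the authors' deposited tables give means of 113 for bull and 132 for daughter fertility. Its log2 fold changes there were -0.18 (SE 0.44) and -0.76 (SE 0.66). How reads that fit both overlapping hairpins were counted is not stated in any source at hand, which makes the level of miR-3600 uncertain. Without miR-3600 the members made up 8.02% of the summed daughter fertility means. Their summed implied level was then 11276 with high and 11791 with low daughter fertility, against 11278 and 15034 with it.

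High and low daughter fertility were compared to ask which sperm miRNAs go with the fertility of a bull's daughters. No member passed an adjusted p of 0.05, and the smallest, that of miR-10183-5p, was 0.146 by the authors' Wald test. Over all miRNAs with a p, 0.21% passed that threshold. At an unadjusted p under 0.05 there were 6 members, or 6.06% of the 99 with a p, beside 6.1% of all miRNAs. Of these, 2 were higher with high daughter fertility (2.31% of all miRNAs) and 4 were lower (3.79% of all miRNAs). The members' share was near that background.

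The member with the smallest p was miR-10183-5p, from a hairpin within FAM117A. Its implied level was 89.5 normalized counts with high and 574 with low daughter fertility. The authors' deposited table gives a log2 fold change of -2.68 (SE 0.78), an unadjusted Wald p of 0.000614 and an adjusted p of 0.146. In the bull fertility comparison, which shares libraries, its implied level was 89.4 with high and 240 with low fertility, and the authors' deposited table gives -1.42 (SE 0.75). It was thus listed lower with high fertility in both, without passing the adjusted threshold in either.

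Lower implied levels with high daughter fertility were also listed for miR-4523, within TAOK1, a protein kinase gene. They were 33.0 with high and 131 with low fertility, a log2 fold change of -1.99 (SE 0.66) and an adjusted Wald p of 0.340 in the authors' deposited table. The authors' deposited bull fertility table gives miR-4523 a log2 fold change of 0.26. miR-6519, within a long non-coding RNA gene, stood at 24.7 and 104, with -2.07 (SE 0.85) and an adjusted Wald p of 0.506 in the authors' deposited table. miR-6534, within GPATCH4, stood at 32.4 and 104, with -1.68 (SE 0.68) in the authors' deposited table. None of these passed the threshold after adjustment.

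Higher implied levels with high daughter fertility were listed for both arms of miR-6119, whose hairpin lies within RPL39, the gene of a large-subunit ribosomal protein. miR-6119-5p stood at 194 normalized counts with high and 55.8 with low fertility, with a log2 fold change of 1.80 (SE 0.58) and an adjusted Wald p of 0.331 in the authors' deposited table. miR-6119-3p stood at 197 and 68.5, with 1.52 (SE 0.80) and an unadjusted Wald p of 0.0563 in the authors' deposited table. In the bull fertility comparison the arms lay on opposite sides of 0, at -0.15 for 5p and 0.31 for 3p in the authors' deposited table. On the high side the unadjusted p was under 0.05 for miR-6119-5p and for miR-6122-3p, which lies within REL, an NF-κB subunit gene. miR-6122-3p stood at 18.3 and 4.61, with 1.98 (SE 0.81) and an adjusted Wald p of 0.506 in the authors' deposited table.

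Among further members with a small p, the implied level of miR-7863 was 580 normalized counts with high and 239 with low daughter fertility, a log2 fold change of 1.28 (SE 0.74) in the authors' deposited table. miR-6501, within the splicing-factor gene SON, stood at 563 and 273, with 1.05 (SE 0.67) in the authors' deposited table. miR-6529a, within the kinase gene GSK3B, stood at 399 and 227, where for bull fertility it stood at 147 and 315. miR-4286 stood at 148 and 81.6. miR-10168-5p, within FBN1, the gene of the extracellular matrix protein fibrillin 1, stood at 57.4 and 28.3. In the other direction, miR-7865 stood at 128 and 327, miR-10182-5p within FGF12 at 72.5 and 185, and miR-3533 within the cytoplasmic actin gene ACTG1 at 34.5 and 93.2. The adjusted p of each of these was above 0.05.

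For daughter fertility 3 members had a fold change but no p, namely miR-3600, miR-3602 and miR-6121-5p. All 3 were listed lower with high fertility, as were 24 of the 26 such miRNAs in the whole table. For miR-6121-5p, within the semaphorin receptor gene PLXNA2, the implied level was 55.7 with high and 334 with low fertility, and the authors' deposited table gives -2.58 (SE 0.97). For miR-3602 it was 40.1 and 139, with -1.79 (SE 0.90) in the authors' deposited table. Why a fold change comes without a p is not stated. Whether such levels rest on an outlying library cannot be seen.

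**Figure D2:**
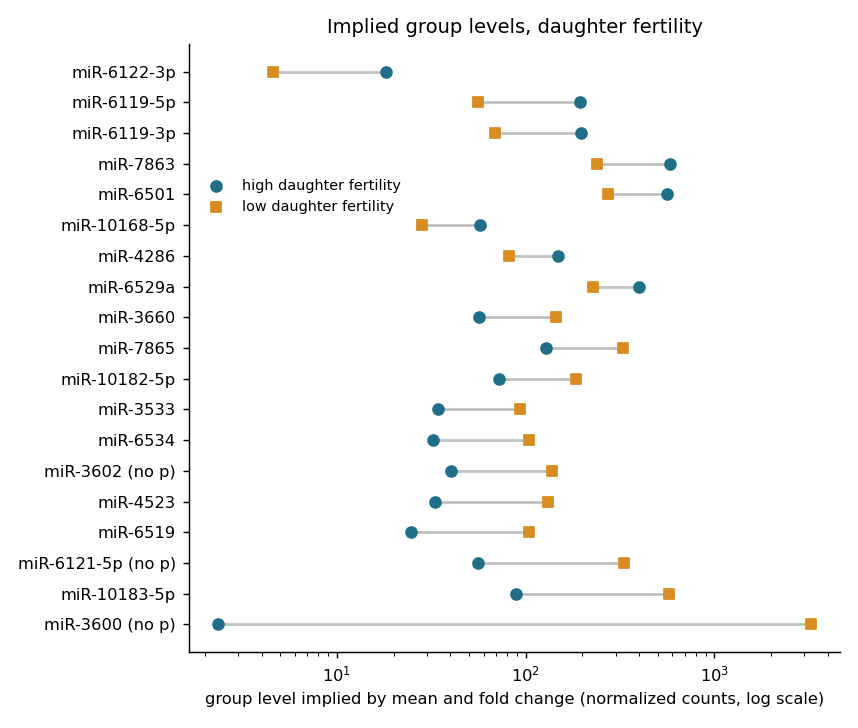
Implied level in normalized counts (x axis, log scale) of 19 members with high (circles) and low (squares) daughter fertility, joined by a line. No member passed the adjusted threshold. miR-3600 spans the widest range, and "no p" marks the 3 members for which the authors' deposited table lists no p-value.

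High and low bull fertility were compared to ask which sperm miRNAs go with the bull's own fertility. No member passed an adjusted p of 0.05, the smallest being 0.986, and 0.0% of all miRNAs with a p did, by the authors' Wald test. At an unadjusted p under 0.05 there were 2 members, 1.98% of the 101 with a p, beside 4.67% of all miRNAs. Both were lower with high bull fertility, where 1.76% of all miRNAs were called, and none was higher, where 2.9% were.

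These 2 were miR-3660 and miR-6526. The implied level of miR-3660 was 63.6 normalized counts with high and 155 with low bull fertility, a log2 fold change of -1.28 (SE 0.59) and an adjusted Wald p of 0.986 in the authors' deposited table. For daughter fertility miR-3660 stood at 57.0 and 145, with -1.35 (SE 0.72) in the authors' deposited table. For miR-6526 the bull fertility levels were 203 and 361, with -0.83 (SE 0.41) in the authors' deposited table. For daughter fertility the same miRNA stood at 665 and 470, with 0.50 (SE 0.71), so its 2 fold changes had opposite signs. The difference between them was not tested, since the comparisons share libraries.

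Other members low with high bull fertility by rank of p were miR-6529a, at 147 and 315 normalized counts, and miR-8550, within CPAMD8, at 243 and 415. miR-3120 stood at 45.2 and 75.3, miR-6121-3p at 39.9 and 71.6, and miR-10172-5p within BEGAIN at 16.7 and 35.7. On the high side, miR-6517 stood at 210 and 107. It lies within DNAAF2, which encodes a factor needed to assemble the dynein arms of cilia and sperm flagella, and the authors' deposited table gives it 0.96 (SE 0.63). Lower in level, miR-6533 stood at 55.2 and 30.6, miR-10166-5p within AACS at 31.8 and 18.1, miR-6535 within TRIP10 at 122 and 83.0, miR-6775 at 110 and 74.9, and miR-6532 within the ubiquitin-conjugating enzyme gene UBE2E2 at 63.8 and 43.1. The abundant miR-3154 stood at 1110 with high and 715 with low bull fertility, with 0.64 (SE 0.48) in the authors' deposited table. For miR-6519 the authors' deposited table gives -1.93 (SE 0.82) without a p. No named value of the bull fertility comparison passed the adjusted threshold.

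**Figure D3:**
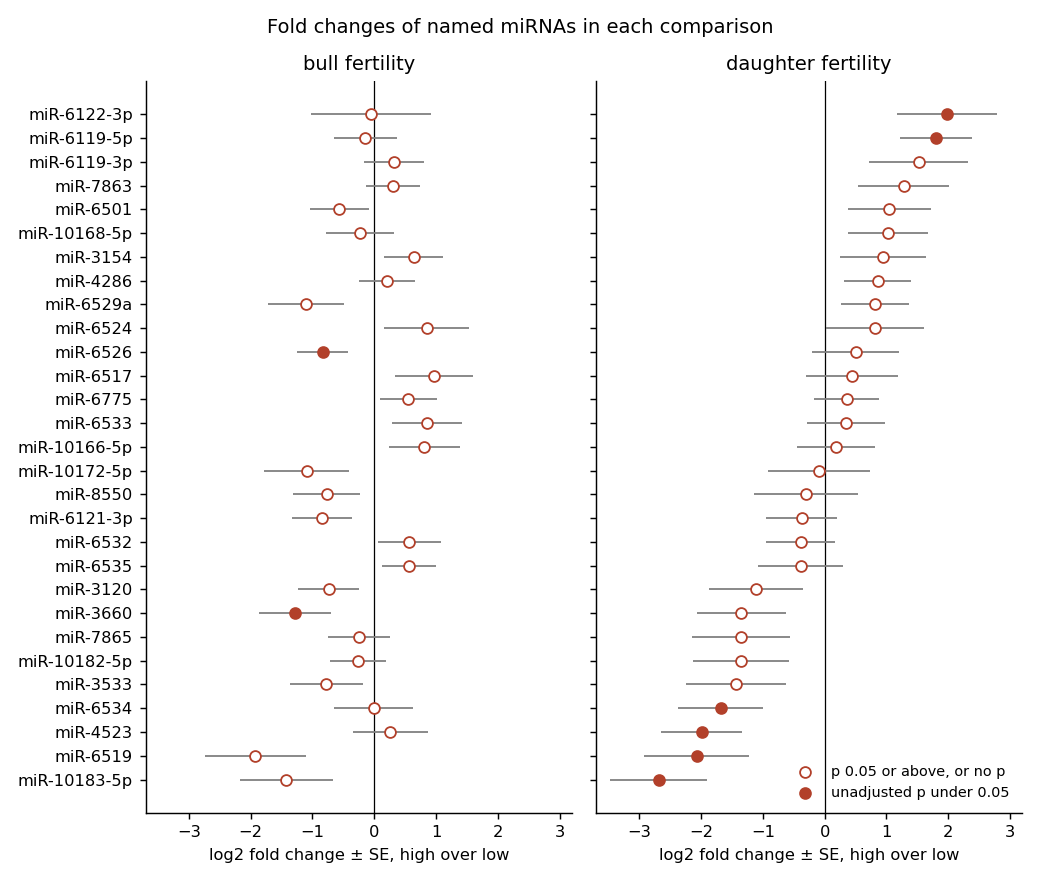
Log2 fold change, high over low fertility, of named members in the authors' deposited tables for bull and daughter fertility, with bars of 1 SE either way and filled points where the unadjusted p was under 0.05. Filled points are 2 for bull fertility and 6 for daughter fertility, and no member passed the adjusted threshold.

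Over the members as a whole the fold changes were centred near 0. For bull fertility 49 were higher and 53 lower with high fertility, with a median log2 fold change of -0.02 against 0.01 over all miRNAs. For daughter fertility 50 were higher and 52 lower, with a median of -0.04 against -0.11. The widest fold changes outside miR-3600 included members with means below 10, such as miR-3613a, to which the authors' deposited tables give 2.64 (SE 1.64) for bull and 3.63 (SE 2.32) for daughter fertility. The precision was limited: the 95% interval of the fold change stayed within 2-fold either way for 4 members and within 4-fold for 85 in bull fertility, and for 0 and 61 in daughter fertility. With 3 samples in a group, absence of a call does not show that levels were alike.

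The members were also described by band of the numbering. For daughter fertility, 24 (72.7%) of the 33 members numbered from 6000 to below 7000 had a higher level with high fertility, and their median log2 fold change was 0.36. Of the 33 numbered from 9000 to below 11000, 11 were higher, with a median of -0.28. For bull fertility the same bands had 18 and 12 higher, with medians of 0.16 and -0.18. Among the 15 members numbered from 3000 to below 4000, 6 were higher in each comparison, and of the 15 numbered from 7000 to below 9000, 8 were higher for bull and 6 for daughter fertility. Among the 6 numbered from 4000 to below 6000, 5 and 3 were higher. Over all miRNAs with a fold change, 45.3% had a higher level with high daughter fertility. For daughter fertility the share was 45.0% for the miR-2284 and miR-2285 families, 46.3% for the other miRNAs numbered below 3000 and 34.4% for those numbered 11000 and above. In the same order the shares for bull fertility were 52.9%, 50.5% and 49.0%. These counts are a description of non-independent rows, and the difference between bands was not tested.

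**Figure D4:**
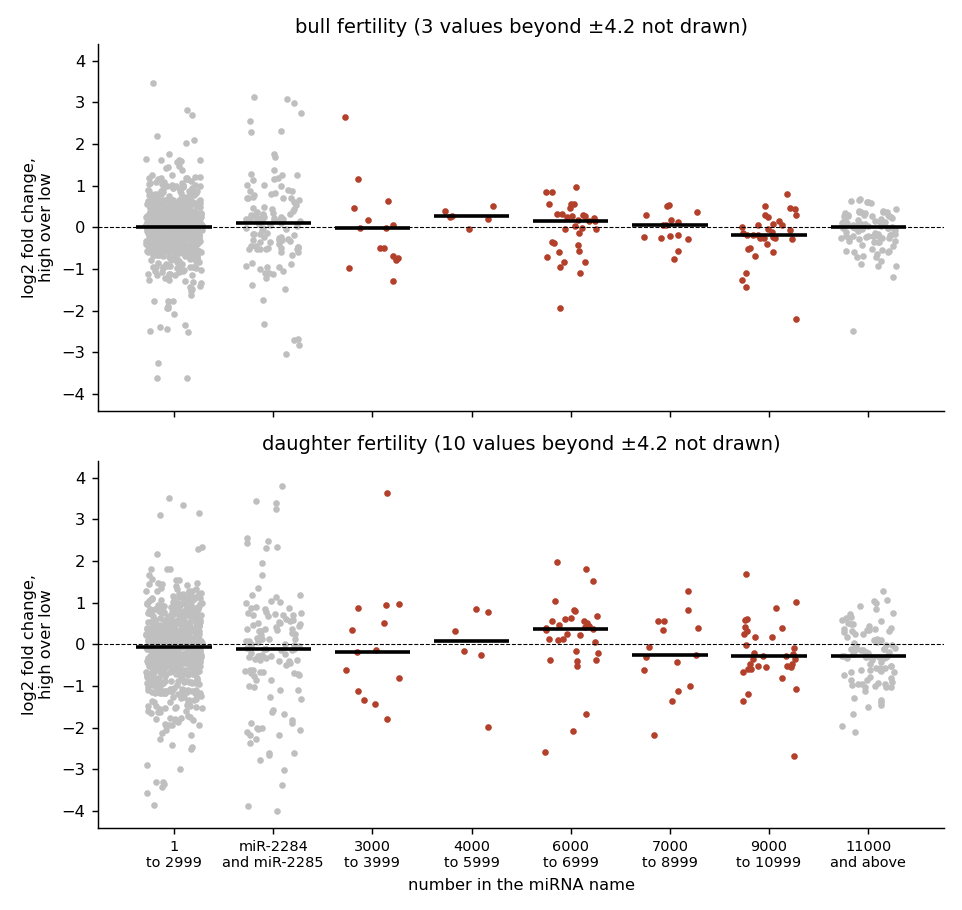
Log2 fold change, high over low fertility, by number band of the miRNA, for bull (top) and daughter fertility (bottom); points are miRNAs, with members in red, and lines mark medians. The let-7 miRNAs are not drawn, nor are 3 values for bull and 10 for daughter fertility beyond 4.2 either way, miR-3600 among them. For daughter fertility the band from 6000 to below 7000 has a median of 0.36 and that from 9000 to below 11000 one of -0.28.

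Both arms were listed for 9 hairpins. The 3p arm had the higher mean in 7 of the 9 in each comparison, although not in the same 7. The 5p arm was higher for miR-6122 in both, at 9.97 times the 3p mean for bull and 5.0 times for daughter fertility. For miR-6120 it was higher for bull fertility alone, and for miR-6121 for daughter fertility alone. The 5p to 3p ratio of miR-6121 was 0.803 for bull and 3.12 for daughter fertility, with 5p means of 44.8 and 195 and 3p means of 55.7 and 62.5 in the authors' deposited tables. For daughter fertility miR-6121-5p had no p, and at least about 73.9% of its signal lay in the 4 libraries used for that comparison alone. The change in ratio between the comparisons was not tested. The most uneven hairpin in the 3p direction was miR-10174, with a 3p mean 17.6 times the 5p mean for bull and 7.84 times for daughter fertility, although both arms were below 10. In 6 of the 9 hairpins both arms had fold changes of the same sign, for each comparison.

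**Figure D5:**
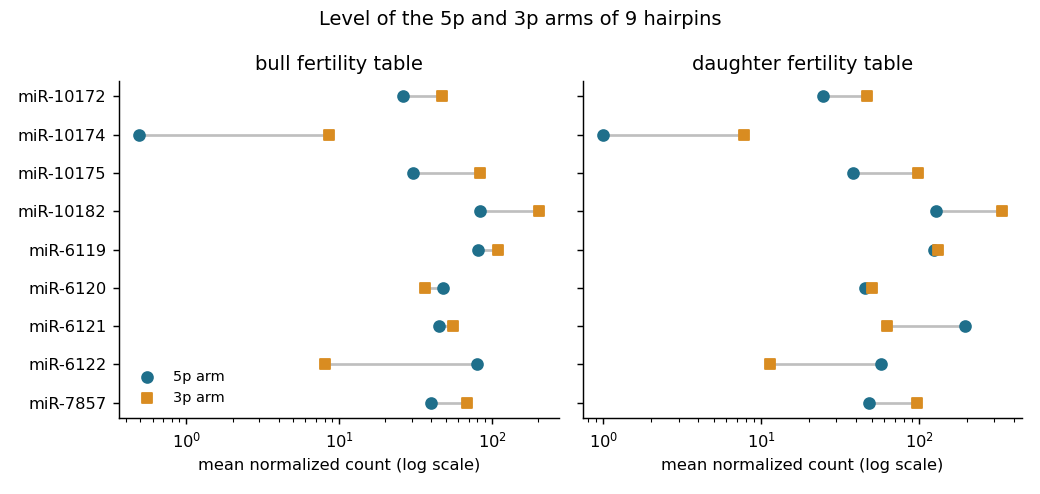
Mean normalized count (log scale) of the 5p and 3p arms of the 9 hairpins with both arms listed, for the libraries of the bull (left) and the daughter fertility comparison (right); circles are 5p and squares 3p. The 5p arm of miR-6122 lies to the right of its 3p arm in both panels, and that of miR-6121 in the daughter fertility panel.

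RefSeq names of the ARS-UCD2.0 assembly matched 83 of the 93 member hairpins. Of these, 61 (73.5%) lay within the span of a protein-coding gene, irrespective of strand, 7 within a long non-coding RNA gene alone and 15 within neither. For comparison, 63.8% of 748 other matched hairpins lay within a protein-coding span, with 76.9% for miRNAs numbered 11000 and above. Members within protein-coding spans were higher with high bull fertility in 28 of 68 rows, and matched members outside them in 16 of 23. For daughter fertility the counts were 32 of 68 and 11 of 23. Over all miRNAs with a fold change, the share higher was 50.6% for bull and 45.3% for daughter fertility. No test was run on these splits.

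Several members sit beside older miRNAs. miR-3120 lies in DNM3, the dynamin 3 gene, overlapping miR-214 and close to miR-199a, and miR-3154 lies in DNM1 close to miR-199b. In human and mouse miR-3120 is read from the strand opposite miR-214. For daughter fertility the authors' deposited table gives miR-3120 -1.11 (SE 0.77) and miR-214 -0.66 (SE 0.69), and for bull fertility -0.74 (SE 0.49) and -0.43 (SE 0.48). The abundant miR-3154 had a mean of 913 beside 59.8 for miR-199b in the authors' deposited bull fertility table, and its fold change was 0.64 where that of miR-199b was -0.70 (SE 0.51). None of these fold changes passed the adjusted threshold.

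miR-3431 lies in GABRE, a GABA-A receptor subunit gene, close to miR-224 and miR-452. For daughter fertility its log2 fold change was -0.81 (SE 0.68), beside -0.45 (SE 0.54) for miR-224 and 0.10 (SE 0.58) for miR-452, in the authors' deposited table. miR-3956 and miR-3957 had 15 and 17 measured neighbours within 10 kb, among them miR-376a and miR-409a, in the imprinted DLK1-DIO3 miRNA cluster. Their means were 49.7 and 52.7 for bull and 51.3 and 53.9 for daughter fertility in the authors' deposited tables, with log2 fold changes between -0.18 and 0.17. A measured neighbour within 10 kb was found for 10 of the 83 matched hairpins (12.0%).

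miR-4680 and miR-6524 both come from the span of PDCD4, a translation inhibitor gene, and they differed in level. By the authors' deposited table, miR-4680 had a mean of 49.0 and miR-6524 one of 16.5 for bull fertility, with log2 fold changes of -0.04 (SE 0.54) and 0.85 (SE 0.69). miR-3064 lies in DDX5, an RNA helicase gene whose protein takes part in miRNA processing, and the authors' deposited tables give it 0.47 (SE 0.52) for bull and 0.50 (SE 0.59) for daughter fertility. miR-7180, in EFCAB2, stood at 64.6 with high and 139 with low daughter fertility, with -1.11 (SE 0.75) in the authors' deposited table. None of these fold changes passed the adjusted threshold.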

How the data were processed

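Small RNA libraries were made from sperm RNA purified with a miRNeasy kit, per the labels' protocols. The submitters' processing notes list Trimmomatic 0.39 and DESeq2 1.34.0 with no role. No source used here gives the aligner, genome build, annotation or counting rules. The deposited miRNA tables hold, per the file headers, a signal (mean normalized count), a log2 fold change, its SE, the Wald score, and the p-value before and after adjustment. The tsRNA table, used only for library depth, holds the authors' normalized signal per group, log2 fold changes and p-values. The deposited adjusted p-values are the Benjamini-Hochberg values of every row that has a p, to within 5.98e-14.

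Which group is the numerator of the fold change is not in the headers. Between the tables the means of miR-2285ab and of miR-2285dc both changed by a factor of 1.137, so their reads lie in a library both comparisons share. Shared libraries are all high bull fertility, and both deposited bull fertility fold changes are negative (-1.27 and -3.07), which gives a sign of low over high. For daughter fertility, the SE of miR-2285ab in the bull fertility table (4.08) is that of a fit to 1 read; the highest SE found for 2 reads was 4.06. At 1 read the library's size factor is 0.704 and 0.619, near the 0.618 of the shared library with high daughter fertility, as the tsRNA table gives it, and far from the 1.39 of the other shared library. Its deposited daughter fertility fold change is negative (-2.33), so that sign was also read as low over high. This step rests on the SE as well as on depth. At 2 reads the depth would lie nearer to that of the other shared library. All signs were turned to high over low.

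Group levels were computed from the mean and the fold change, assuming equal groups, and are rough for means under 10. The planned count test was replaced by the authors' values, since no per-sample counts were at hand, and precision from depth is therefore unknown. Named members followed a rule: per comparison the 8 smallest p per direction with a mean of at least 10, the 10 highest means, hairpins with both arms, unadjusted p under 0.05, and miR-3600, miR-4523, miR-6119 and miR-10183. Members named for their neighbours, host genes or missing p were chosen after their values were seen. Members and lists were chosen with earlier results of these data known. RefSeq (ARS-UCD2.0) was used for names, spans and neighbours within 10 kb only. The p adjustment was tested on simulated data with Python 3.11.15, pandas 2.3.3 and scipy 1.17.1. The simulated check of group levels took its fold change from the group means themselves, so it could not fail. It does not test the levels implied by the authors' fold changes. The alternatives filled missing p from the Wald statistic, raised the mean minimum to 10 or 100, used a threshold of 0.1 or Bonferroni, and kept 1 row per number.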

Additional observations from a re-analysis of the deposited data

How the results depend on the processing

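The count of members past the adjusted threshold stayed at 0 for both comparisons under the 5 alternatives run. With a mean of at least 100 required, the daughter fertility members with an unadjusted p under 0.05 numbered 2 in place of 6. That mean was reached by 36 members, where the 6 were among 99 with a p. Filling missing p from the Wald statistic gave 3 members for bull and 9 for daughter fertility. The fill takes in rows for which no p was listed. The share of all miRNAs under either setting is not given here, so these counts cannot be set against a background. The share of members higher with high daughter fertility was 49.0%, and 41.7% at a mean of at least 100. For miR-10183-5p the adjusted p ranged from 0.0581 to 0.132 under the alternatives, against 0.146. That of miR-6119-5p ranged from 0.119 to 0.299, against 0.331, and that of miR-4523 from 0.156 to 0.307, against 0.340. No paired analysis was possible because the deposited tables hold no value per sample. For the same reason leaving out a sample and another normalization were not run.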
